A study of Rattus norvegicus with 10 samples.

Results

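The genes described here encode voltage-gated sodium channels, voltage-gated calcium channels and transient receptor potential (TRP) channels in primary rat oligodendrocyte progenitor cells (OPCs) and oligodendrocytes (OLs). Members were every gene of the deposited table of gene symbols named Scn with a number and a or b, Cacn, or Trpa, Trpc, Trpm or Trpv with a number. The rule found 52 of the 16129 genes in that table, and each member symbol belonged to a single gene ID. They comprise 9 sodium channel alpha subunits, 4 sodium channel beta subunits, 8 calcium channel alpha1 subunits, 3 alpha2delta subunits, 4 beta subunits, 6 genes of the gamma family, 6 TRPC channels, 7 TRPM channels and 5 TRPV channels. All 52 were tested in at least 1 of 5 comparisons, and 44 in all 5.

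The series holds 10 RNA libraries in 5 groups of 2. The cells came from mixed glial cultures of the cortex of Sprague-Dawley pups aged P1 to P3, from which OPCs were shaken off and enriched by differential adhesion, and they were not sorted. OLs had been transfected with a mimic of miR-145-5p (miR-145), with mimics of miR-145 and miR-219 together (miR-145+miR-219) or with a scrambled mimic (miR-ctl), and were collected 5 days later in medium with triiodothyronine, CNTF and N-acetyl cysteine. OPCs had been given a miR-145-5p inhibitor (anti-miR-145) or a scrambled inhibitor (anti-miR-ctl), and were collected after 24 h in medium with FGF2 and PDGF-AA. Each oligonucleotide was used at 30 nM. The study's reporting describes its replicates as biological, and for primary cultures speaks of a single mouse each, while these cells are from rats and the labels do not tie a library to an animal or litter, and p-values measure the spread between these libraries.

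Voltage-gated sodium and calcium channels open when the membrane depolarizes. Their alpha or alpha1 subunit forms the pore, and beta, alpha2delta and gamma subunits set how much channel reaches the membrane and how it gates. Several genes of the Cacng family encode TARPs, which escort AMPA-type glutamate receptors rather than calcium channels. TRP channels are mostly calcium-permeable cation channels that respond to phospholipase C signalling (TRPC), to temperature, lipids or oxidants (TRPM and TRPV), or to stretch. OPCs are known for voltage-gated sodium and calcium currents that decline as the cells mature, and calcium entry is a known regulator of their proliferation, migration and myelination.

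The mature miRNAs behind the transfected oligonucleotides are shown because every contrast with a mimic or an inhibitor was built on them. Sequences are from RefSeq on the GRCr8 assembly, written 5′ to 3′, with the seed (bases 2 to 8) in capitals. The labels state that the miR-145-5p mimic has the sequence of the mature miRNA. They say only miR-219 for the other mimic, so the 5p arm of rno-miR-219a is shown as the annotated miRNA and not as the known sequence of the reagent.
rno-miR-145-5p: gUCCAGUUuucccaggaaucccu
rno-miR-219a-5p: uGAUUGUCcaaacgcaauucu
The first lies on chromosome 18 at 57370033 to 57370055 and the second on chromosome 3 at 33516561 to 33516581, both on the minus strand. The levels of the miRNAs themselves were not analysed here.

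Library totals ran from 33505668 to 42684176 estimated counts assigned to genes. The OL and OPC labels were checked against markers. The summed level of 9 maturing OL markers was 15556 to 34093 CPM (counts scaled to the size of each library) in the OL libraries and 1089 to 1320 CPM in the OPC libraries, while 4 OPC markers summed to 1364 to 2013 CPM and 3514 to 4540 CPM. Of these OPC markers, Pdgfra, Cspg4 and Ptprz1 had lower means in miR-ctl OLs than in anti-miR-ctl OPCs. Gpr17 went the other way, at a mean of 320 CPM in miR-ctl OLs beside 23.8 CPM in anti-miR-ctl OPCs. Genes of other cells were present too. The 6 astrocyte markers summed to 5192 to 12415 CPM in OLs and 282 to 543 CPM in OPCs, and the 8 microglia markers summed to 308 to 869 CPM in OLs and 800 to 986 CPM in OPCs. In such bulk samples, fewer cells of a type and less RNA per cell cannot be told apart.

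For every level, CPM was scaled by TMM factors of the 10 libraries together. CPM is not corrected for transcript length, and transcript lengths were not used here, so a level is compared between groups of the same gene and not between genes. Of the 52 members, 34 were at 1 CPM or more in every library, 10 were at 10 CPM or more in every library, and 11 were under 1 CPM in every library. Cacng4 and Cacng7 were above 100 CPM in every library. The members of low counts include Scn4b, Scn9a, Scn11a, Cacng2, Cacng6, Cacna1s, Trpc5, Trpm6, Trpm8 and Trpv4, and few reads stood behind any difference.

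**Figure D1:**
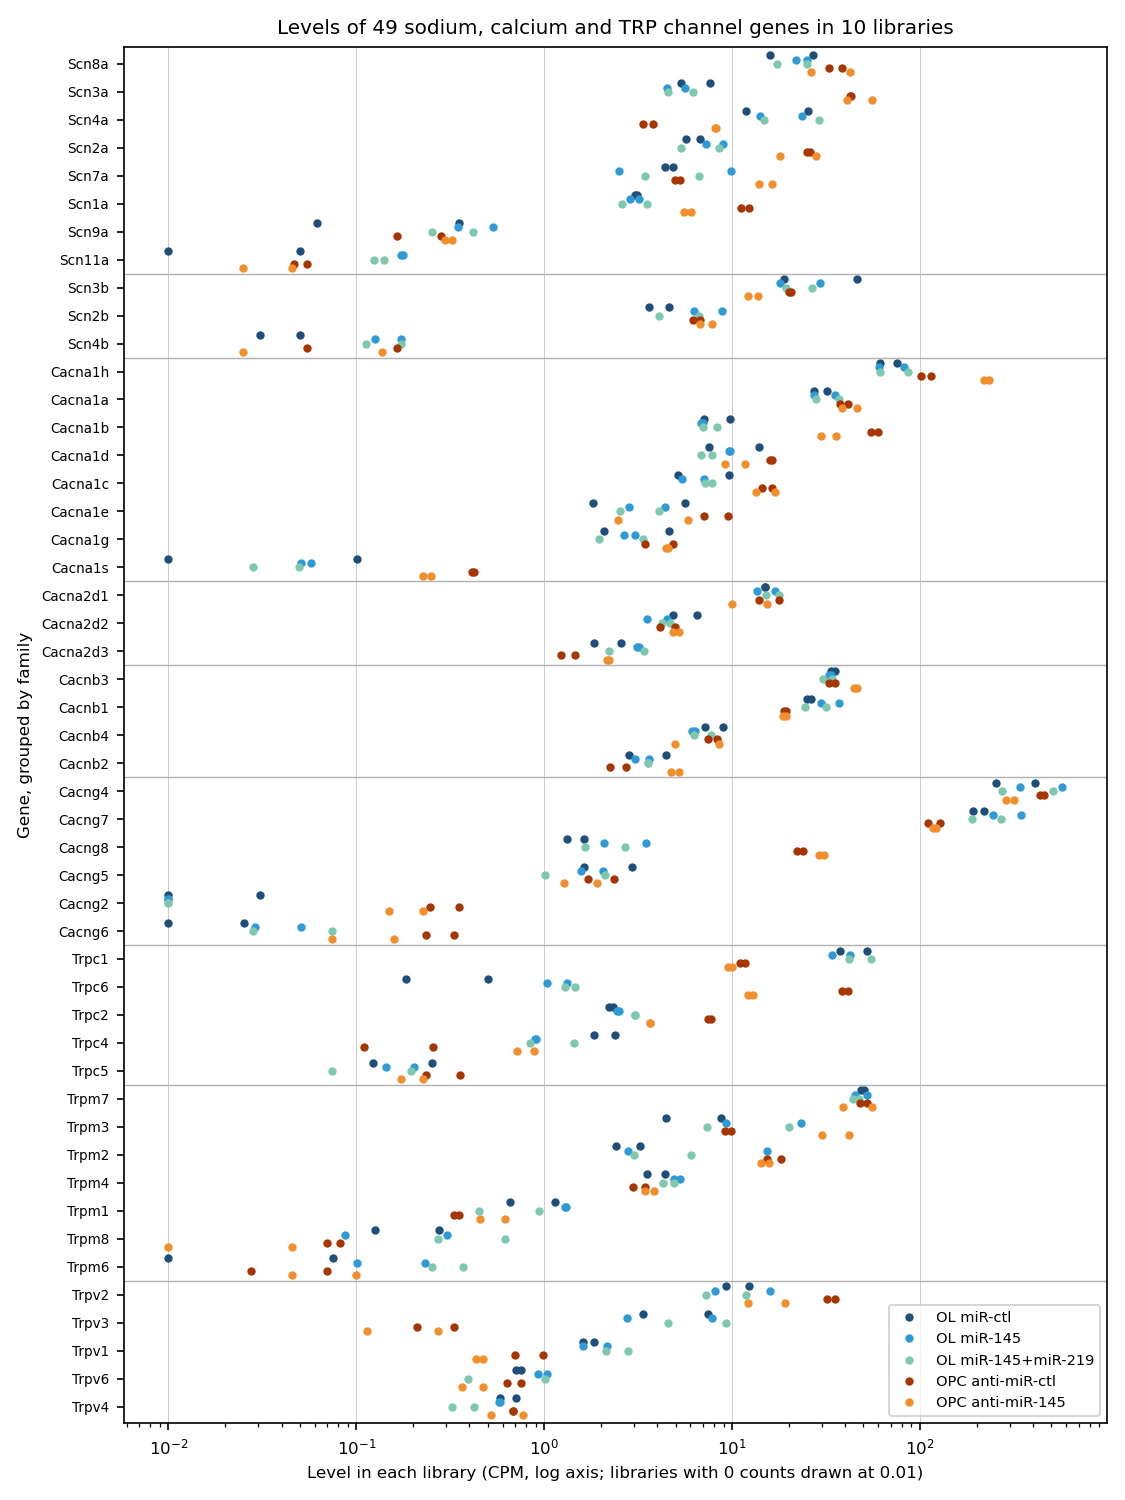
Level of 49 of the 52 channel genes in each of the 10 libraries, in CPM on a log axis, with genes grouped by family and points coloured by group. Cacng4 and Cacng7 lie above 100 CPM in every library, and for Trpc6 and Cacng8 the OPC points lie well to the right of the OL points.

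Cacng4, Cacng7, Cacna1h and Trpm7 were among the 5 members with the highest mean CPM. Cacng4 encodes a TARP found in glia. Its level was 409 and 254 CPM in miR-ctl OLs, 572 and 340 CPM in miR-145 OLs, 511 and 274 CPM in miR-145+miR-219 OLs, 455 and 436 CPM in anti-miR-ctl OPCs, and 287 and 316 CPM in anti-miR-145 OPCs. In each OL group the second library was the lower one, and these pairs lay further apart than any difference between OL group means. Within each replicate number the miR-145 library was above the miR-ctl library, and the labels do not tie a number to a culture. Cacng4 was not called for miR-145 in the main fit. A fit that also allowed for replicate number called it, beside 2272 of 15461 genes in all. Cacng7, another TARP of the family, was at 220 and 191 CPM in miR-ctl OLs, 345 and 243 CPM in miR-145 OLs, 269 and 190 CPM in miR-145+miR-219 OLs, 127 and 111 CPM in anti-miR-ctl OPCs, and 118 and 122 CPM in anti-miR-145 OPCs. All 6 OL libraries were above all 4 OPC libraries.

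Cacna1h encodes the T-type channel Cav3.2, which opens near the resting potential. Its level was 61.0 and 75.8 CPM in miR-ctl OLs, 60.6 and 81.9 CPM in miR-145 OLs, 61.0 and 86.4 CPM in miR-145+miR-219 OLs, 114 and 101 CPM in anti-miR-ctl OPCs, and 218 and 232 CPM in anti-miR-145 OPCs. The anti-miR-145 OPCs stood above the other 8 libraries, and the 3 OL groups overlapped. Trpm7, a channel fused to a kinase that carries magnesium and calcium, was at 50.0 and 48.3 CPM in miR-ctl OLs, 45.1 and 52.0 CPM in miR-145 OLs, 47.2 and 43.9 CPM in miR-145+miR-219 OLs, 52.1 and 48.0 CPM in anti-miR-ctl OPCs, and 38.8 and 55.7 CPM in anti-miR-145 OPCs. Its highest and lowest libraries were both anti-miR-145 OPCs, and they spanned the other 8 libraries.

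The first comparison asks how channel transcripts differ between the stages, with miR-ctl OLs set against anti-miR-ctl OPCs. Scn1a, Scn2a, Scn3a, Cacna1b, Cacng8, Trpc6 and Trpm2 were lower in OLs, and Trpc1, Trpc4, Trpv3 and Scn4a were higher. Trpc6 and Cacng8 had fitted levels 111 and 15.5 times lower in OLs. With edgeR's quasi-likelihood test, adjusted by Benjamini and Hochberg's method across every gene tested, 26 of 49 tested members were called at an adjusted p under 0.05, which is 53.1%, beside 57.5% of the 15721 genes tested. Of these, 18 were lower and 8 were higher in OLs, while over all genes 28.7% were lower and 28.8% were higher. The share of members called was therefore near that of all genes, and their median log2 fold change was -0.31 beside 0.01 over all genes. Day of collection, medium and the kind of control oligonucleotide differed along with the stage, and their parts cannot be told apart.

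**Figure D2:**
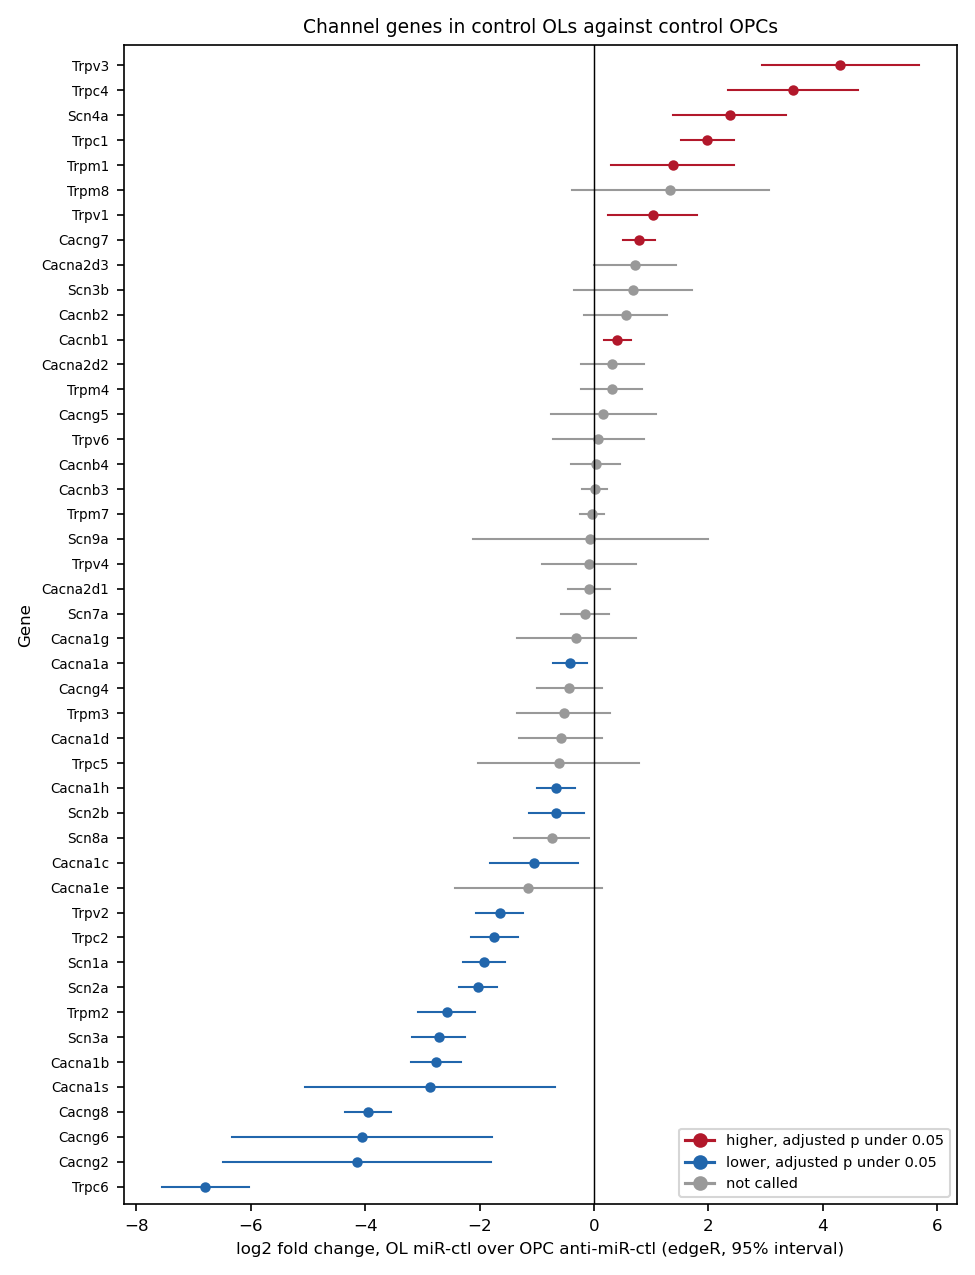
Log2 fold change of 46 of the 49 tested channel genes in miR-ctl OLs over anti-miR-ctl OPCs, with 95% intervals from edgeR, in red where called higher, in blue where called lower and in grey where not called. The 16 lower genes drawn run from Trpc6 at -6.79 to Cacna1a at -0.42, and the 8 higher genes run from Cacnb1 at 0.41 to Trpv3 at 4.31.

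Among the sodium channel alpha subunits, 4 of 8 tested were called lower in OLs and 1 was called higher, beside 28.7% and 28.8% of all genes. Scn2a, which encodes Nav1.2 of immature axons and OPCs, was at 6.78 and 5.68 CPM in miR-ctl OLs and 25.9 and 25.2 CPM in anti-miR-ctl OPCs (log2 fold change -2.04, SE 0.13, edgeR adjusted p = 0.000219). Scn3a, which encodes the embryonic channel Nav1.3, was at 7.64 and 5.34 CPM in OLs and 43.0 and 42.3 CPM in OPCs (log2 fold change -2.71, SE 0.18, edgeR adjusted p = 0.000249). Scn1a, which encodes Nav1.1, was at 3.12 and 3.04 CPM in OLs and 12.3 and 11.1 CPM in OPCs (log2 fold change -1.93, SE 0.14, edgeR adjusted p = 0.000354). For all 3 genes every OL library of the series lay below every OPC library. The alpha subunit genes are close paralogs, and the authors' estimates divide reads that more than 1 of them could give.

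Scn4a was the exception in the other direction. It encodes Nav1.4, the channel of skeletal muscle, and its level was 11.9 and 25.4 CPM in miR-ctl OLs and 3.79 and 3.37 CPM in anti-miR-ctl OPCs (log2 fold change 2.37, SE 0.39, edgeR adjusted p = 0.00497). The miR-ctl OL libraries were far from each other and still lay above both OPC libraries. Scn8a, which encodes Nav1.6 of mature nodes of Ranvier, was at 27.0 and 15.8 CPM in OLs and 38.6 and 32.9 CPM in OPCs and was not called by edgeR (log2 fold change -0.74, SE 0.26, edgeR adjusted p = 0.0566), whereas DESeq2 called it (adjusted p = 0.0140). Scn7a and Scn9a were not called either, and Scn11a was not tested. Of the beta subunits, Scn2b was called lower, at 4.60 and 3.59 CPM in OLs and 6.78 and 6.17 CPM in OPCs (log2 fold change -0.66, SE 0.19). Scn3b was not called, and Scn4b had too few counts to test.

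All 8 calcium channel alpha1 genes had lower fitted levels in OLs. Of these, 5 were called, beside 57.5% of all genes called and 28.7% called lower. Cacna1b encodes the N-type channel Cav2.2 of synaptic terminals. Its level was 9.75 and 7.06 CPM in miR-ctl OLs and 59.6 and 54.8 CPM in anti-miR-ctl OPCs (log2 fold change -2.77, SE 0.17, edgeR adjusted p = 0.000195). The smaller changes called were Cacna1h at -0.66 (SE 0.13), the L-type gene Cacna1c at -1.05 (SE 0.30) and the P/Q-type gene Cacna1a at -0.42 (SE 0.12). Cacna1s, the skeletal muscle L-type gene, had 4 counts in OLs and 33 in OPCs, a ratio of 7.53 with a counting interval of 2.68 to 29.3, and it passed the low-count filter only through the OPCs, the group where it was high. Cacna1d, Cacna1e and Cacna1g were not called by edgeR, whereas DESeq2 called Cacna1e. None of the 3 alpha2delta genes was called. Of the beta subunits, Cacnb1 alone was called, at 26.3 and 24.9 CPM in OLs and 19.4 and 19.0 CPM in OPCs (log2 fold change 0.41, SE 0.09), and Cacnb2, Cacnb3 and Cacnb4 were not.

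Members of the gamma family moved in opposite directions. Cacng8, a TARP of AMPA receptors, was at 1.63 and 1.32 CPM in miR-ctl OLs and 23.8 and 22.3 CPM in anti-miR-ctl OPCs (log2 fold change -3.96, SE 0.16, edgeR adjusted p = 6.6e-05). It had the smallest p of all members in this comparison, and every OL library of the series was at or below 3.46 CPM while every OPC library was at or above 22.3 CPM. Cacng7 rose, with a log2 fold change of 0.79 (SE 0.11, edgeR adjusted p = 0.00277). Cacng2, which encodes the TARP stargazin, had 1 count in OLs and 24 in OPCs, and Cacng6 had 1 and 22. Their ratios of 21.9 and 20.1 had counting intervals of 3.57 to 901 and 3.25 to 829, and both passed the filter only through the OPCs. Cacng4 and Cacng5 were not called.

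TRPC channels, which are calcium-permeable channels downstream of phospholipase C, gave the widest spread. Trpc6, which opens on diacylglycerol, was at 0.503 and 0.184 CPM in miR-ctl OLs and 41.4 and 38.3 CPM in anti-miR-ctl OPCs (log2 fold change -6.79, SE 0.30, edgeR adjusted p = 8.45e-05). Trpc1, whose product assembles with other TRPC subunits, was at 37.5 and 52.2 CPM in OLs and 11.0 and 11.6 CPM in OPCs (log2 fold change 1.98, SE 0.18, edgeR adjusted p = 0.000694). All 6 OL libraries of the series were above all 4 OPC libraries for Trpc1 and below them for Trpc6. Trpc4, a subunit that pairs with Trpc1, was at 2.39 and 1.84 CPM in OLs and 0.257 and 0.110 CPM in OPCs (log2 fold change 3.48, SE 0.45, edgeR adjusted p = 0.00217). Trpc2, the pheromone transduction channel of the rodent vomeronasal organ, fell by 1.74 on the log2 scale (SE 0.16). Trpc5 was not called.

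Of the TRPM genes, Trpm2, which encodes a channel opened by ADP-ribose and oxidants, was at 2.41 and 3.22 CPM in miR-ctl OLs and 18.2 and 15.2 CPM in anti-miR-ctl OPCs (log2 fold change -2.58, SE 0.20, edgeR adjusted p = 0.000385). Trpm2 is also a known gene of microglia. The microglia marker sum was 350 and 529 CPM in these OLs and 882 and 826 CPM in these OPCs. By edgeR 4 of 8 markers were called lower in OLs and 0 were called higher. The other 4, C1qa, C1qb, C1qc and Cx3cr1, had higher fitted levels in OLs, and DESeq2 called 2 markers higher. The part of microglia in the Trpm2 difference was not tested. Trpm1, known from melanocytes and retinal bipolar cells, was called higher at a low level, 0.653 and 1.14 CPM in OLs beside 0.351 and 0.329 CPM in OPCs (log2 fold change 1.37, SE 0.43). Trpm3, Trpm4, Trpm7 and Trpm8 were not called, and Trpm6 was not tested. Of the TRPV genes, Trpv3, a warm-sensitive channel of keratinocytes, was at 3.34 and 7.40 CPM in OLs and 0.211 and 0.329 CPM in OPCs (log2 fold change 4.31, SE 0.54, edgeR adjusted p = 0.00198). Trpv1, the capsaicin receptor, was higher by 1.03 (SE 0.31), and Trpv2, a cation channel also found in phagocytes, was lower by a log2 fold change of -1.65 (SE 0.16), at 9.27 and 12.3 CPM beside 35.2 and 32.1 CPM. Trpv4 and Trpv6 were not called.

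Astrocyte markers were higher in these OLs than in these OPCs, at 5192 to 5983 CPM beside 522 to 543 CPM, with 5 of 6 called higher. Neuron markers were lower, at 104 to 144 CPM beside 594 to 628 CPM, with 6 of 8 called lower. Gap43, which immature glia also express, supplied 499 and 537 CPM of the OPC sums. Astrocyte Gjb6 was listed at 0 in 1 of the 2 OPC libraries, and none of the neuron markers measured was at 0 in any library. The part of other cell types in the sodium and calcium channel differences was not tested. Leaving out either anti-miR-ctl OPC library reduced the 26 called members to 15, while the 9042 genes called in all fell to 4842 without replicate 1 and to 4780 without replicate 2, with Cacna1s, Cacng2 and Cacng6 among those then too low to test. Cacna1a, Cacna1c, Cacnb1, Scn2b, Trpm1 and Trpv1 lost their calls without either library, and Cacna1h lost it only without replicate 1. Trpm1 also lost its call without replicate 2 of miR-ctl OLs, and DESeq2 did not call Cacng6, Trpv1, Cacna1s or Trpm1.

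The second comparison asks what an inhibitor of miR-145 changed in OPCs within 24 h. Trpc6, Scn1a, Trpc2 and Cacna1b were lower in anti-miR-145 OPCs, and Trpm3, Scn7a, Scn4a and Cacna1h were higher, with folds from 1.74 for Cacna1b to 3.81 for Trpm3. By edgeR, 16 of 49 tested members were called, 8 higher and 8 lower, which is 32.7% beside 28.1% of the 15496 genes tested. Over all genes 12.1% were called higher and 16.0% lower. The members' median log2 fold change was -0.07 beside 0.00 over all genes. The libraries of the groups did not overlap for 29 of the 49 members, beside 67.8% of all genes.

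**Figure D3:**
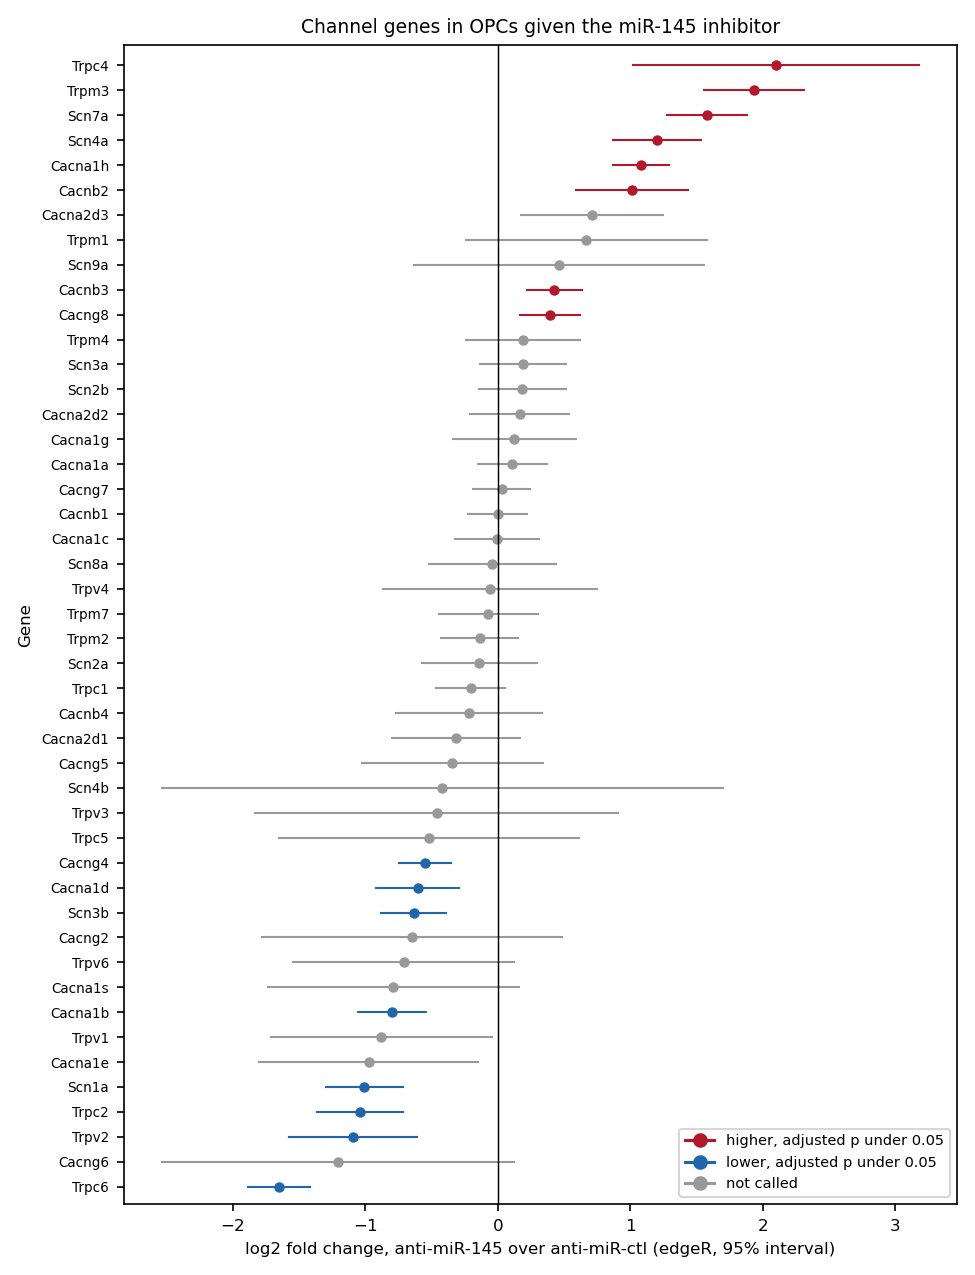
Log2 fold change of 46 of the 49 tested channel genes in anti-miR-145 over anti-miR-ctl OPCs, with 95% intervals from edgeR, in red where called higher, in blue where called lower and in grey where not called. The 8 higher genes run from Cacng8 at 0.39 to Trpc4 at 2.10, and the 8 lower genes run from Cacng4 at -0.55 to Trpc6 at -1.65.

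Sodium channel alpha genes changed in both directions, with 2 called higher and 1 lower of 8 tested, beside 12.1% and 16.0% of all genes. Scn7a encodes Nax, a channel that senses extracellular sodium and is known from glia. Its level was 14.0 and 16.4 CPM in anti-miR-145 OPCs and 5.29 and 4.96 CPM in anti-miR-ctl OPCs (log2 fold change 1.58, SE 0.13, edgeR adjusted p = 0.000217). Scn4a was at 8.17 and 8.13 CPM beside 3.79 and 3.37 CPM (log2 fold change 1.20, SE 0.14, edgeR adjusted p = 0.00105). In contrast, Scn1a was at 5.51 and 6.02 CPM beside 12.3 and 11.1 CPM (log2 fold change -1.01, SE 0.12, edgeR adjusted p = 0.00125). The libraries of the groups were well separated for these 3 genes, with gaps larger than the difference between replicates. Scn2a, Scn3a, Scn8a and Scn9a were not called. For Scn2a the log2 fold change was -0.14 and turned to 0.13 without replicate 1 of anti-miR-145, and the anti-miR-145 libraries at 18.1 and 27.9 CPM lay on either side of the anti-miR-ctl libraries at 25.9 and 25.2 CPM. Of the beta subunits, Scn3b was called lower, at 12.1 and 13.7 CPM beside 20.5 and 19.9 CPM (log2 fold change -0.63, SE 0.10), while Scn2b and Scn4b were not called.

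Calcium channel genes were called among the alpha1, beta and gamma genes and not among the alpha2delta genes. Among the alpha1 genes, Cacna1h doubled, at 218 and 232 CPM in anti-miR-145 OPCs and 114 and 101 CPM in anti-miR-ctl OPCs (log2 fold change 1.08, SE 0.09, edgeR adjusted p = 0.000258). Cacna1b was at 29.5 and 35.7 CPM beside 59.6 and 54.8 CPM (log2 fold change -0.80, SE 0.11, edgeR adjusted p = 0.00212). Thus the T-type gene rose and the N-type gene fell in the same libraries. Cacna1d, which encodes the L-type channel Cav1.3, fell by 0.60 (SE 0.13). Of the others, Cacna1e had a log2 fold change of -0.97 (SE 0.35, edgeR adjusted p = 0.0792, DESeq2 adjusted p = 0.0215), and Cacna1a, Cacna1c, Cacna1g and Cacna1s were not called.

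Of the beta subunits, which carry pore subunits to the membrane, Cacnb2 was called higher at 4.72 and 5.22 CPM beside 2.71 and 2.25 CPM (log2 fold change 1.01, SE 0.18), and Cacnb3 was called higher at 46.2 and 44.5 CPM beside 35.2 and 32.9 CPM (log2 fold change 0.43, SE 0.09). Cacnb1 and Cacnb4 were not called. In the gamma family, Cacng4 fell by 0.55 on the log2 scale (SE 0.08) and Cacng8 rose by 0.39 (SE 0.10). Both are TARPs, and their groups did not overlap. Cacng2, Cacng5, Cacng6 and Cacng7 were not called, nor were the 3 alpha2delta genes, of which Cacna2d3 came nearest with a log2 fold change of 0.71 (SE 0.23, edgeR adjusted p = 0.0556).

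Trpc6 had the smallest p of the members in the inhibitor comparison. Its level was 12.9 and 12.2 CPM in anti-miR-145 OPCs and 41.4 and 38.3 CPM in anti-miR-ctl OPCs (log2 fold change -1.65, SE 0.10, edgeR adjusted p = 9.09e-05). Trpc2 was at 3.65 and 3.63 CPM beside 7.67 and 7.48 CPM (log2 fold change -1.04, SE 0.14, edgeR adjusted p = 0.00179). Trpc4 went the other way from a low level, at 0.720 and 0.885 CPM beside 0.257 and 0.110 CPM (log2 fold change 2.10, SE 0.46, edgeR adjusted p = 0.0151). Trpc1 and Trpc5 were not called. Trpm3, which encodes a heat- and steroid-sensitive channel known from sensory neurons and glia, was at 30.1 and 41.8 CPM beside 9.82 and 9.21 CPM (log2 fold change 1.93, SE 0.16, edgeR adjusted p = 0.000248). It was the only TRPM gene of 5 tested that was called, and Trpm6 and Trpm8 had too few counts to test. Trpv2 fell by 1.09 (SE 0.20), at 19.1 and 12.2 CPM beside 35.2 and 32.1 CPM, and was the only TRPV gene called. All 5 TRPV genes had negative log2 fold changes, as did 29 of the 49 tested members. Trpv1, Trpv4 and Trpv6 were under 1 CPM in every OPC library.

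**Figure D4:**
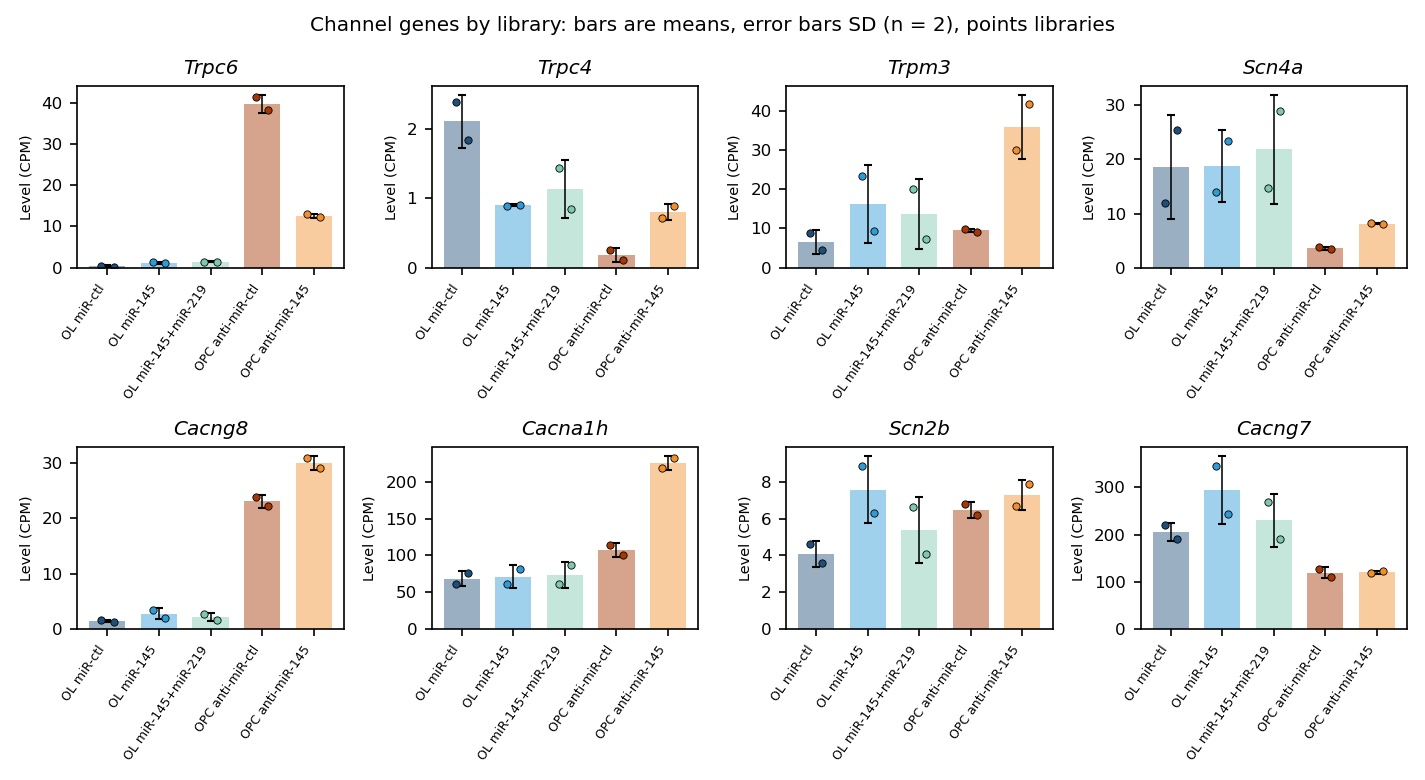
Levels in CPM of 8 channel genes in the 5 groups, where bars are group means, error bars are the SD over 2 libraries and points are libraries. Trpc6 drops from about 40 CPM in anti-miR-ctl OPCs to about 12.6 CPM in anti-miR-145 OPCs, Cacna1h doubles to 225 CPM, and Scn2b has its highest mean in miR-145 OLs at 7.57 CPM.

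Marker genes of other cells also differed between these OPC groups. Microglia markers summed to 800 to 986 CPM with the inhibitor and 826 to 882 CPM with its control, with 4 of 8 called higher and 3 called lower. Astrocyte markers summed to 282 to 329 CPM and 522 to 543 CPM, where Gfap was called higher and Slc1a3 and S100b were called lower. Of the neuron markers, Rbfox3, Nefl and Nefm were called higher, and the sum was 665 to 709 CPM beside 594 to 628 CPM. The endothelial markers summed to 2.18 to 2.23 CPM beside 11.0 to 11.8 CPM, with Flt1 called lower. Gjb6 was listed at 0 in 1 library of each group. Their part in the channel differences was not tested. Over the libraries left out in turn, between 13 and 23 members were called, beside 2348 to 7133 genes in all. Cacnb3 and Cacng8 lost their calls without either anti-miR-ctl library, Cacna1d without its replicate 1 and Trpc4 without its replicate 2. In a joint fit of all 5 groups 9 of the 16 calls remained, while the genes called in all fell from 4348 to 2657 of 15496. Scn7a, Scn4a, Cacng4, Scn3b, Trpv2, Cacna1d and Cacng8 were not called in that fit.

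Both OPC and stage comparisons used the same anti-miR-ctl libraries, so their changes are set side by side only as values. For Trpc6 the log2 fold change was -1.65 with the inhibitor and -6.79 in OLs, for Scn1a -1.01 and -1.93, for Trpc2 -1.04 and -1.74, for Cacna1b -0.80 and -2.77, and for Trpv2 -1.09 and -1.65. Trpc4 had values of 2.10 and 3.48, and Scn4a had values of 1.20 and 2.37. For Cacng8 the values were 0.39 and -3.96, and for Cacna1h they were 1.08 and -0.66. The last 2 genes thus rose with the inhibitor and were lower in OLs. Any error of the shared libraries enters both values of a pair with the same sign.

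The third set of comparisons asks what the mimics changed in OLs. With the miR-145 mimic, compared with miR-ctl OLs, Scn2b, Trpc6, Cacng7 and Cacnb1 had higher levels and Trpc4 had lower levels, with groups that did not overlap, but none passed the test. By edgeR, 0 of 47 tested members were called, and 0 of all 15461 genes tested. At an unadjusted p under 0.05 there were 6 members, 5 higher and 1 lower, beside 13.4% of all genes, 8.99% higher and 4.38% lower. Groups did not overlap for 22 of the 47 members, 16 higher and 6 lower, beside 47.3% of all genes, 22.9% higher and 24.4% lower. The 16 include Scn11a, with 13 counts beside 2, and Scn4b, with 11 beside 3. Both passed the filter only through the miR-145 libraries, where they were high, and both enter the members' median. DESeq2 called 1 member, beside 4.2% of all genes. The median log2 fold change of the members was 0.09 beside -0.01 over all genes. Cacna1s, Cacng2, Cacng6 and Trpm6 had too few counts to test.

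Scn2b, which encodes a sodium channel beta subunit, was at 8.86 and 6.29 CPM in miR-145 OLs and 4.60 and 3.59 CPM in miR-ctl OLs (log2 fold change 0.89, SE 0.27, edgeR adjusted p = 0.272). None of the tested alpha subunits had an unadjusted p under 0.05. Trpc4 was at 0.894 and 0.909 CPM beside 2.39 and 1.84 CPM (log2 fold change -1.22, SE 0.32, edgeR adjusted p = 0.220). Trpc6 was at 1.33 and 1.04 CPM beside 0.503 and 0.184 CPM (log2 fold change 1.75, SE 0.55, edgeR adjusted p = 0.291). Both TRPC levels are low in OLs, and that of Trpc6 was far under the 38.3 to 41.4 CPM of control OPCs. Cacng7 had a log2 fold change of 0.52 (SE 0.19, edgeR adjusted p = 0.350), and Cacnb1, at 37.0 and 29.8 CPM beside 26.3 and 24.9 CPM, had one of 0.39 (SE 0.15, edgeR adjusted p = 0.352).

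Markers of other cells differed in level with the mimic. Astrocyte markers summed to 8549 to 12415 CPM in miR-145 OLs and 5192 to 5983 CPM in miR-ctl OLs, with 6 of 6 higher in mean, 0 called by edgeR and 3 called higher by DESeq2. Mural and fibroblast markers summed to 56.4 to 67.6 CPM beside 26.4 to 36.4 CPM, with Dcn listed at 0 in 1 miR-ctl library. Their part in the Scn2b value was not tested. In replicates 1 and 2 of miR-145, microglia markers summed to 330 and 869 CPM. Trpm2 was at 2.80 and 15.4 CPM in the same order and at 2.41 and 3.22 CPM in miR-ctl OLs. Its log2 fold change of 1.70 (SE 0.77, edgeR adjusted p = 0.414) became -0.0077 without replicate 2 of miR-145. The part of microglia in the Trpm2 value was not tested.

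With both mimics, 0 of 47 tested members were called relative to miR-ctl OLs, and 0 of 15436 genes. At an unadjusted p under 0.05 there were 3 members, all higher, beside 6.19% of all genes and 3.96% higher. DESeq2 called 0 members, beside 0.687% of all genes. Trpc6 was at 1.46 and 1.29 CPM beside 0.503 and 0.184 CPM (log2 fold change 1.97, SE 0.53, edgeR adjusted p = 0.800). Trpm6, a magnesium channel of kidney and gut, had 24 counts beside 3, a ratio of 7.61 with a counting interval of 2.31 to 39.5, and passed the filter only through the miR-145+miR-219 libraries. The next members by p were Trpc4, Scn11a and the osmosensitive channel gene Trpv4. Trpc4 had a log2 fold change of -0.89 (SE 0.38), and Trpv4 was at 0.321 and 0.421 CPM beside 0.704 and 0.583 CPM. Scn11a had 10 counts beside 2, a ratio of 4.75 with a counting interval of 1.01 to 44.6. Like Trpm6, it passed the filter only through the miR-145+miR-219 libraries. These comparisons used the same miR-ctl libraries as those of miR-145 alone, so Trpc6 and Trpc4 in the 2 comparisons are not independent observations.

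**Figure D5:**
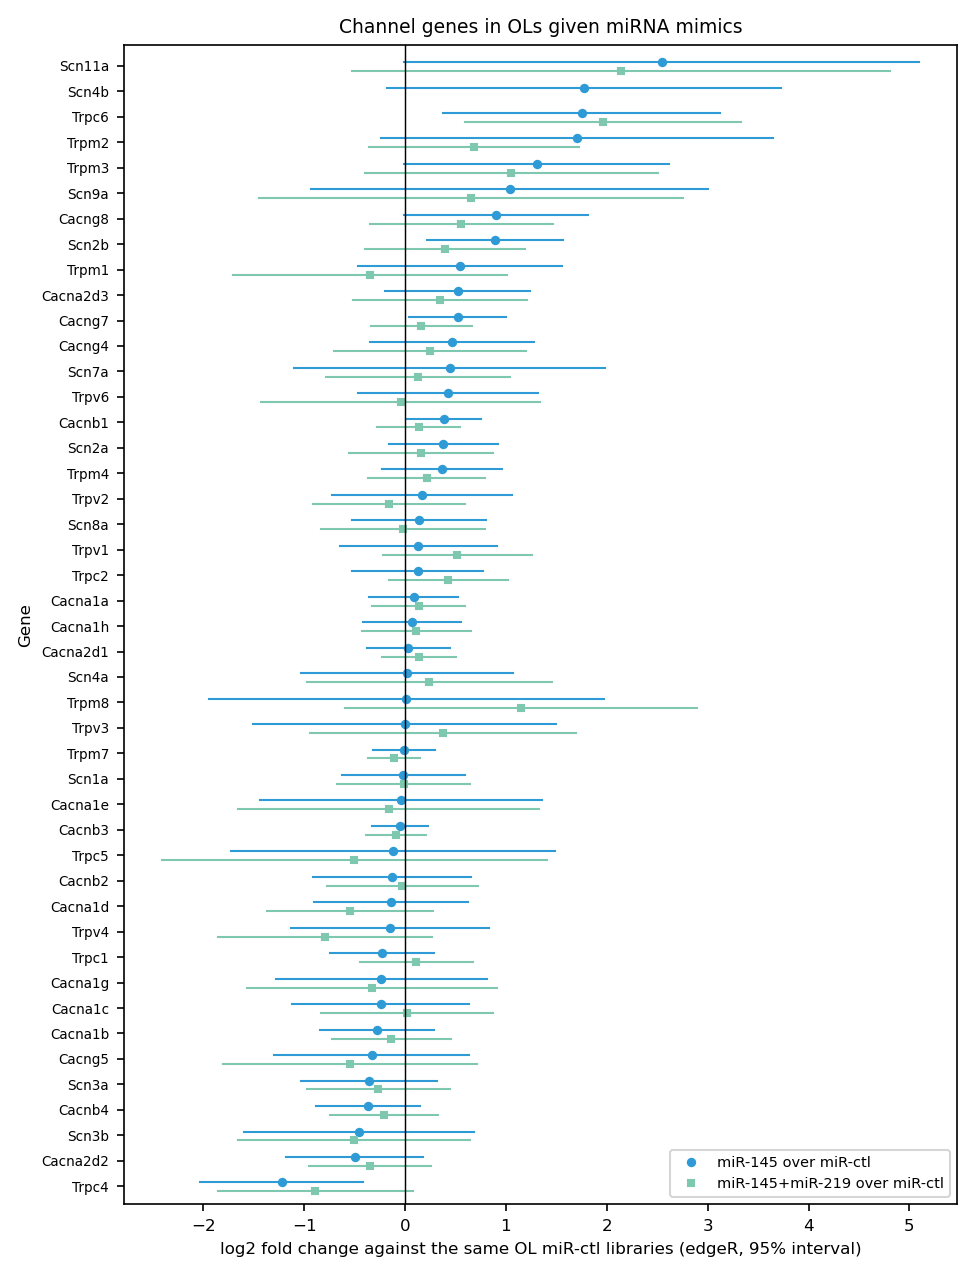
Log2 fold change with 95% edgeR intervals of channel genes in miR-145 OLs (blue circles) and miR-145+miR-219 OLs (green squares) over the same miR-ctl libraries, for 45 of the 47 members tested with miR-145. No gene was called in either comparison, and Trpc6 lies at 1.75 with miR-145 and 1.97 with both mimics. In the miR-145 comparison Scn11a and Scn4b passed the low-count filter only through the miR-145 libraries.

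Between miR-145+miR-219 OLs and miR-145 OLs, 0 of 48 tested members were called, and 0 of 15501 genes. DESeq2 called 0 members, beside 0.0581% of all genes. At an unadjusted p under 0.05 there was 1 member, lower with both mimics, beside 1.47% of all genes and 1.14% lower. Cacna1d was at 7.83 and 6.82 CPM beside 9.66 and 9.70 CPM (log2 fold change -0.41, SE 0.16). Trpm1 was at 0.939 and 0.449 CPM beside 1.30 and 1.29 CPM, Trpc1 at 41.8 and 54.9 CPM beside 33.8 and 42.3 CPM, Trpv4 at 0.321 and 0.421 CPM beside 0.577 and 0.581 CPM, and Scn2b at 6.65 and 4.10 CPM beside 8.86 and 6.29 CPM. For Trpc1 and Scn2b the groups overlapped.

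Genes whose products work with these channels were taken as lists, 23 measured partners that anchor, traffic or modify channels and 33 measured genes of calcium entry, release and removal. In the stage comparison 20 of 23 partners were called, 9 higher and 11 lower in OLs, and 25 of 33 calcium handling genes, 12 higher and 13 lower, beside 57.5% of all genes. Genes of the paranode and node were among them. Nfasc, whose product neurofascin joins OL loops to axons, was at 4404 ± 66.0 CPM (SD, n = 2) in miR-ctl OLs and 173 ± 3.05 CPM in anti-miR-ctl OPCs, a log2 fold change of 4.67 (SE 0.09, edgeR adjusted p = 3.1e-05). Nrcam and the ankyrin genes Ank3 and Ank2 were called higher, by 3.03, 2.96 and 1.39 on the log2 scale, whereas the adhesion gene Cntn1 was called lower with a log2 fold change of -1.89. Stim1, the sensor that opens store-operated calcium channels, was higher by 1.53.

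With the inhibitor in OPCs, 8 of 23 partners were called, 2 higher and 6 lower, and 13 of 32 calcium handling genes, 3 higher and 10 lower, beside 28.1% of all genes. Rem2, a small GTPase that restrains calcium channels, was at 4.10 ± 0.0765 CPM (SD, n = 2) in anti-miR-145 OPCs and 0.717 ± 0.0448 CPM in anti-miR-ctl OPCs (log2 fold change 2.52, SE 0.21, edgeR adjusted p = 0.00026). Ryr3, a calcium release channel of the endoplasmic reticulum, was at 10.9 ± 3.62 CPM beside 51.6 ± 3.57 CPM (log2 fold change -2.23, SE 0.20, edgeR adjusted p = 0.000328). The calcium pump gene Atp2b2 fell by 1.26, Stim1 by 0.89 and the ubiquitin ligase gene Nedd4l by 0.76 on the log2 scale, and the calcium channel adaptor gene Stac2 rose by 1.04. In the 3 OL comparisons 0 genes of either list were called by edgeR, with 5 partners and 6 handling genes at an unadjusted p under 0.05 for miR-145, beside 13.4% of all genes. The counts were 2 and 1 for both mimics relative to miR-ctl, beside 6.19%, and 0 and 0 between the mimic groups, beside 1.47%. DESeq2 called 5 partners and 2 handling genes for miR-145, beside 4.2% of all genes, and 0 in the other two.

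Promoters are shown for 4 members that differed between OLs and OPCs, 2 of them lower in OLs (Trpc6 and Cacng8) and 2 higher (Trpc4 and Scn4a). Each runs from 250 bases before to 50 bases after the start of the gene in RefSeq on GRCr8, 5′ to 3′ on the strand of the gene. This annotated start was not checked against a measured transcription start. In the Trpc6 window it falls on the letters atg, so a window may not hold the promoter in use. Capitals mark CAGCTG, a palindromic E-box word that reads the same on both strands and was chosen after the sequences had been seen.
Trpc6 (chr8:14043966-14044265, plus strand): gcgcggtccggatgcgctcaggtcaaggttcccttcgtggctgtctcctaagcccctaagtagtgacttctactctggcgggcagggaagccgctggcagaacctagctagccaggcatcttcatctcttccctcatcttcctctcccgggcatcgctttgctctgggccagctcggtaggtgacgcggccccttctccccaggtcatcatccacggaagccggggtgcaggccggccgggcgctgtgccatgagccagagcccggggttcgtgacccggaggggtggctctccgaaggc
Cacng8 (chr1:74690954-74691253, minus strand): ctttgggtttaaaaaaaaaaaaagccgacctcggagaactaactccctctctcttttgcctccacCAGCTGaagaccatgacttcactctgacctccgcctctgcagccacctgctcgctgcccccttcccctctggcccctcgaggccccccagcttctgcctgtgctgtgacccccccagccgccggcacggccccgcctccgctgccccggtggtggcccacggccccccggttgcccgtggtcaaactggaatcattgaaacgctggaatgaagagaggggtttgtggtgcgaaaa
Trpc4 (chr2:140501046-140501345, plus strand): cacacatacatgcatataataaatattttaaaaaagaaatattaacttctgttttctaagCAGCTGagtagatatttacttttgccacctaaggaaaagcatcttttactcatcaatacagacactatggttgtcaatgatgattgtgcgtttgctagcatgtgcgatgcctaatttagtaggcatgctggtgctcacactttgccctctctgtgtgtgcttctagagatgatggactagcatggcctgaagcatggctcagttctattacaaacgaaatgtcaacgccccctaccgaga
Scn4a (chr10:91796275-91796574, minus strand): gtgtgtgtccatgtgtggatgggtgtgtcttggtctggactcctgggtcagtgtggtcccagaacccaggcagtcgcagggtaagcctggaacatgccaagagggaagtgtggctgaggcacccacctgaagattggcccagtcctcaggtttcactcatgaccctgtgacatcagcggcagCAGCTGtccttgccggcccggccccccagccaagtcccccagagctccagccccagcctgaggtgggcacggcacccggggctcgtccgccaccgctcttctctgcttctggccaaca
The word starts at -185 in Cacng8, -190 in Trpc4 and -68 in Scn4a relative to the gene start, and these letters are not in the window of Trpc6. Promoters were matched for 40 of the 52 members, and 14 of their 46 promoters hold the word (30.4%), beside 15.1% of all 33469 rat promoters of the same length. It was present for 4 of 5 matched members called higher in OLs and 5 of 14 called lower, so genes of either direction carry it. Because the word was chosen after the sequences had been seen, these shares are not a test, and a match is a description of the sequence only.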

How the data were processed

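RNA of primary rat OLs and OPCs was measured in 10 libraries, 2 for each of 5 groups taken from the sample titles and descriptions. According to the methods and the labels, the authors assigned reads of a stranded mRNA library to GENCODE Rnor6.0 transcripts with Salmon 0.12.0, imported the quantifications with tximport, and deposited the estimated count of each gene unnormalized. The authors also deposited a DESeq2 table of miR-145 against miR-ctl OLs, which gives per gene the normalized mean (a signal), log2 fold change, standard error, Wald score, p-value and adjusted p-value. Only its gene IDs and symbols were used. The methods name lentivirus for RNAseq while the labels name transfected mimics, and 1 tag of the miR-145 libraries also names miR-219.

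Estimated counts were rounded. For each comparison, edgeR 4.0.16 (TMM, estimateDisp, glmQLFit, glmQLFTest, in R 4.3.3) was run on the 4 libraries concerned, keeping genes that reached 5 counts in 2 or more of them. A gene was called where its p, adjusted over all genes by Benjamini and Hochberg's method, was under 0.05. The SE of a log2 fold change was obtained as its absolute value over the square root of F. Differences between replicates exceeded counting error in every group. Intervals of count ratios are exact, at 95%, and cover counting error only. Functions were tested on simulated data.

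Every member enters the counts, and a few are not reported here by name. Other called members were all named, with each library's value for up to 8 of smallest p per comparison. Where none was called, the 6 of smallest unadjusted p were given, and the 5 members of highest mean CPM were given throughout. For partners and calcium handling genes, up to 6 called genes of smallest p were named. Scn8a in the stage comparison, Scn2a, Cacna1e and Cacna2d3 in OPCs and Trpm2 with miR-145 were added after their values were seen. The members, lists and rules were chosen with earlier results of these data known. Alternatives were DESeq2 1.42.0, its size factors within edgeR, other low-count filters, 1 joint fit of the 5 groups, a replicate block and leaving out each library. List genes that could not be matched by symbol, such as Rem1, Snap25 and Pecam1, were not analysed here, nor were miRNA sites in transcripts.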

Additional observations from a re-analysis of the deposited data

How the results depend on the processing

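Of 772 values recomputed for single genes under alternatives, 711 kept their direction and their side of the threshold, 39 lost a call, 20 gained one and 2 turned direction. The last were of genes that edgeR had not called, Trpm2 with miR-145, at -0.0077 without replicate 2 and 2.46 without replicate 1 of miR-145, and Scn2a in OPCs, at 0.13 without replicate 1 and -0.47 without replicate 2 of anti-miR-145, where it was called. In the miR-145 comparison of OLs, 1 channel gene was called with DESeq2, beside 649 of 15461 genes in all. With all 5 groups in a single fit 1 was called, beside 79 genes in all. In OPCs given the inhibitor, 9 of the 16 calls remained with all 5 groups in a single fit, which lost Cacna1d, Cacng4, Cacng8, Scn3b, Scn4a, Scn7a and Trpv2. That fit called 2657 of 15496 genes in all, where the main fit called 4348. Leaving out a library gave 13 to 23 calls beside 2348 to 7133 over all genes, and a median log2 fold change of channel genes between -0.19 and 0.10. For miR-ctl OLs against anti-miR-ctl OPCs, leaving out a library gave 15 to 33 calls beside 4780 to 10306 over all genes, and a median between -0.651 and -0.0715. DESeq2 called 24 members in the stage comparison, beside 8388 of 15721 genes in all, where edgeR called 9042. These members included 22 of the 26 genes, and not Cacng6, Trpv1, Cacna1s or Trpm1. They also included Scn8a and Cacna1e, which edgeR had not called. The 772 values include partners and calcium handling genes. A gene that an alternative fit did not test is in neither the 772 nor the 39 that lost a call. Fits with a library left out assume that a lone library varies like the other group. The cause of these shifts was not tested.

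Replicate numbers are shared by the groups, and the labels do not tie a number to a culture or litter. Deviations of same-numbered libraries correlated at 0.40, 0.47 and 0.63 in the 3 OL comparisons, -0.15 in the OPC comparison and 0.07 between OLs and OPCs. With a replicate block, 8 of 47 channel genes were called for miR-145 in OLs beside 2272 of 15461 genes in all (among them Cacng4, Cacng7, Scn2b, Trpc6, Trpm2 and Trpm3 higher, Trpc4 lower), and 2 of 48 between the mimic groups beside 184 of 15501 (Cacng7 among them, both lower with both mimics). The block called 0 of 47 for both mimics relative to miR-ctl beside 132 of 15436 genes, 17 of 49 in OPCs beside 3963 of 15496, and 25 of 49 between OLs and OPCs beside 8534 of 15721. The crossed pairing of the OPC libraries, added after the data were examined, called 18 channel genes, and 5536 genes in all beside 3963 with the uncrossed block. Having 2 libraries per group limits every comparison, and the members under 1 CPM rest on few counts.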
